A study of Mus musculus with 8 samples.

Results

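The genes described here are 8 receptors for orexin, histamine and adenosine, signals that act on sleep and wakefulness, as measured in mouse neurons. They are the orexin receptors Hcrtr1 and Hcrtr2, the histamine receptors Hrh1, Hrh2 and Hrh3, and the adenosine receptors Adora1, Adora2a and Adora2b. They were taken from the table by gene symbol, and all 8 were found among the 18939 genes of the table. Where a gene had several transcript rows, the row with the highest total was used. This concerned Hcrtr1, Hrh2 and Adora1.

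Orexins are peptides of lateral hypothalamic neurons that stabilise wakefulness, and their fibres innervate the paraventricular thalamus (PVT) densely. Histamine is released by tuberomammillary neurons of the hypothalamus during waking, whereas adenosine builds up outside cells during waking and promotes sleep. Hcrtr1, Hcrtr2 and Hrh1 couple mainly to Gq and excite neurons, Hrh2, Adora2a and Adora2b couple to Gs, and Hrh3 and Adora1 couple to Gi and dampen firing or transmitter release.

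The samples were 8 TRAP-Seq libraries, in which ribosomes of neurons that express the mu-opioid receptor (MOR, gene Oprm1) were pulled down with their RNA from PVT dissections. Every mouse carried the genotype OPRM1cre X EGFP-L10a, control mice included, on a C57Bl/6J background, and the methods give an age of 8 to 12 weeks at the start. Morphine mice drank morphine in 0.2% saccharin for 11 days, from 0.3 up to 0.5 mg/ml (4 libraries), and control mice drank 0.2% saccharin alone (4 libraries). Each group had 2 male libraries (control replicates 1 and 2, morphine replicates 3 and 4) and 2 female libraries (control replicates 5 and 6, morphine replicates 7 and 8), and by the methods each library pooled the dissections of 2 mice of the same sex. Tissue was taken at midday. Cre comes from the Oprm1 locus, and it tags for good any cell that expressed Oprm1 at some time, in the PVT or in tissue cut out with it. No library of unpurified RNA was analysed here, so levels cannot be set against whole tissue, and fewer cells of a type and less RNA per cell cannot be told apart.

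Total counts lay between 37081348 and 43311793 per control library and between 31151103 and 47582947 per morphine library. All 10 markers of PVT neurons were detected in every library, with a summed level of 1768 to 2239 CPM (counts scaled to the normalized library size) in control and 1297 to 2401 CPM in morphine libraries. Tcf7l2, at 686 to 1359 CPM, was the largest part of this sum. Of the 10, 8 were lower in morphine libraries (median log2 fold change -0.26, 0 called). The 2 with an unadjusted edgeR P under 0.05 were Gbx2 at 0.619-fold (edgeR adjusted P = 0.227) and Gal at 0.393-fold (edgeR adjusted P = 0.208). Slc17a6, also counted as lower, was at 0.985-fold. The 2 higher markers were Drd2 at 1.825-fold (edgeR adjusted P = 0.481) and Npffr1 at 1.14-fold (edgeR adjusted P = 0.836). Markers of neighbouring tissue differed among libraries. The sum of 10 choroid plexus markers was 16.7 to 84.4 CPM in control and 115 to 381 CPM in morphine libraries, with no overlap, and 1 of the 10, Kcnj13, was at 0 in a library. All 10 were higher in morphine libraries, 9 with an unadjusted edgeR P under 0.05 and 7 with no overlap, and 0 were called. Over all genes, 12.1% had such a P and 6.54% did not overlap. Ttr was at 302 CPM in morphine replicate 8, where it was most of the sum, and at 0.949 CPM in control replicate 1. The sum of 8 striatal spiny neuron markers was 579.8 to 1053 CPM in control and 392 to 2143 CPM in morphine libraries, that of 9 telencephalic pyramidal neuron markers 263 to 525 and 414 to 804 CPM, and that of 6 hippocampal neuron markers 68.8 to 92.6 and 80.7 to 160.4 CPM. Of the 9 telencephalic markers, 8 were higher in morphine libraries and 6 had an unadjusted edgeR P under 0.05, 5 of them higher, with Cux2 the lower one. All 6 hippocampal markers were higher, 4 with an unadjusted edgeR P under 0.05, and 0 markers of either list were called. Sums for the medial habenula (130.4 to 230.1 CPM over all libraries) and for oligodendrocytes (119 to 1510 CPM) overlapped between groups, as did those for astrocytes (11.4 to 50.1 CPM), ependymal cells (6.44 to 13.2 CPM), microglia (0.909 to 6.35 CPM) and endothelial cells (2.96 to 8.40 CPM). Control replicate 5, labelled female, held 28.7% to 35.9% of the male mean of 4 Y-linked genes, so its pooling is uncertain. Oprm1 itself was at 32.3, 29.4, 16.8 and 22.7 CPM in control replicates 1, 2, 5 and 6 and at 15.9, 14.02, 17.6 and 18.4 CPM in morphine replicates 3, 4, 7 and 8. All 4 morphine libraries lay below the control median, and on the log2 scale the fold change was -0.62 ± 0.19 (SE; edgeR unadjusted P = 0.00649, adjusted 0.207). In the values below, libraries are always listed in this order.

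Morphine and control libraries were compared to ask whether chronic morphine changed the levels of arousal receptors in MOR neurons. None of the 8 receptors passed the test across all genes (edgeR's quasi-likelihood test, Benjamini-Hochberg adjusted P under 0.05), in which 37 of 18939 genes, or 0.195%, were called. At an unadjusted P under 0.05 there was 1 receptor, Adora1, beside 2292 genes, or 12.1%, of the whole table. DESeq2 likewise called 0 receptors, while it called 502 of the 15260 genes to which it gave an adjusted P, or 3.29%. In 0 of 8 receptors did the morphine libraries lie wholly above or below the control libraries, which 6.54% of all genes did. The median log2 fold change was -0.02 over the 8 receptors and 0.01 over all genes.

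**Figure D1:**
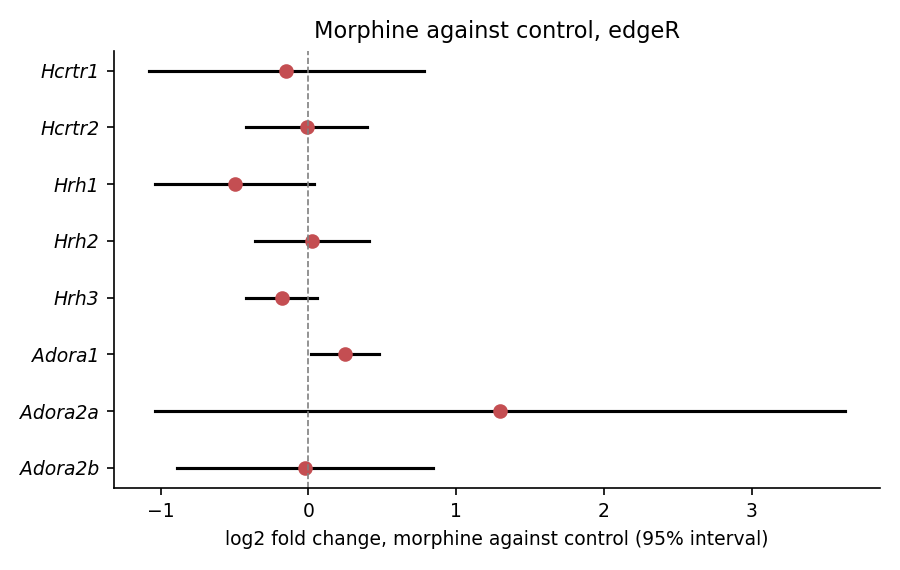
Log2 fold change of each receptor between 4 morphine and 4 control libraries (points) with its 95% interval (lines), from edgeR. The interval of Adora1 lies just above 0 before adjustment, those of the other 7 receptors include 0, and that of Adora2a is the widest.

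Hcrtr1 (GRCm38 chr4:130130217-130139594, minus strand) encodes the orexin receptor that prefers orexin A. It was measured at 2.28, 4.55, 2.08 and 1.47 CPM in control and at 3.09, 1.73, 0.909 and 3.58 CPM in morphine libraries. The highest value was a control library and the lowest a morphine library, and the groups overlapped throughout. Counts behind these values were 28 to 202 per library. Morphine against control gave a log2 fold change of -0.15 ± 0.43 (SE; edgeR adjusted P = 0.912), and its 95% interval ran from 0.473-fold to 1.72-fold. A fall or a rise within that range is compatible with these values. Leaving out control replicate 2 turned it to 0.27, and leaving out morphine replicate 7 turned it to 0.09. Across all libraries, Hcrtr1 varied 5.00-fold from lowest to highest, which 2.65% of the 13703 genes that reached 10 counts everywhere matched or exceeded. The median gene varied 1.52-fold.

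Hcrtr2 (chr9:76225880-76323623, minus strand) encodes the receptor for both orexins that is mutated in inherited canine narcolepsy. It ranged 1.58-fold over the 8 libraries, less than Hcrtr1. Its levels were 4.15, 4.12, 3.23 and 3.67 CPM in control and 3.91, 3.21, 3.05 and 4.83 CPM in morphine libraries. The log2 fold change was -0.01 ± 0.19 (SE; edgeR adjusted P = 0.987), with an interval of 0.746-fold to 1.32-fold. Both orexin receptors were nevertheless low in morphine replicate 7 and high in morphine replicate 8, and over the 8 libraries their log2 CPM had a Pearson r of 0.78 and a Spearman rho of 0.81. This is given as a description of 1 of 21 receptor pairs, picked because both are orexin receptors, and both genes rest on the same libraries and few counts. Of the other pairs, Hcrtr2 with Adora2a had an r of -0.80 and a rho of -0.69, and Hrh1 with Hrh3 had an r of 0.70 and a rho of 0.76.

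Hrh1 (chr6:114397936-114483298, plus strand) encodes the Gq-coupled histamine receptor that sedating antihistamines block. Its levels were 5.10, 7.32, 3.32 and 7.96 CPM in control and 3.94, 4.75, 4.09 and 3.99 CPM in morphine libraries. All 4 morphine libraries lay below the control median, but control replicate 5 lay below all of them. The log2 fold change was -0.50 ± 0.24 (SE), an interval of 0.488-fold to 1.03-fold, with an edgeR adjusted P of 0.454. The exact two-sided permutation test over the 70 arrangements of the 8 libraries gave P = 0.229, where the smallest value possible is 0.0286. Control replicate 5, whose pooling is uncertain, was the only control library below the morphine libraries, so leaving it out separates the groups by construction. That fit gave -0.71 with an unadjusted edgeR P of 0.00287 and an adjusted P of 0.178. In it, 2089 of 18850 genes had an unadjusted edgeR P under 0.05. Leaving out another control library could also weaken the value, to -0.38 without control replicate 2 (edgeR adjusted P = 0.484) and to -0.34 without control replicate 6 (edgeR adjusted P = 0.678). Hrh1 spread more within the control group (coefficient of variation 35.8%) than within the morphine group (9.06%). This difference in spread was not tested.

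Hrh2 (chr13:54191970-54236182, plus strand), the Gs-coupled receptor, was at 5.77, 6.53, 6.12 and 4.67 CPM in control and at 4.95, 5.36, 5.59 and 7.58 CPM in morphine libraries. The fold change was 1.02 with an interval of 0.780 to 1.33 (edgeR adjusted P = 0.976). Morphine replicate 8 was the highest of all 8 libraries, and leaving it out turned the log2 fold change from 0.03 to -0.13.

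Hrh3 (chr2:180099465-180104484, minus strand) encodes the inhibitory receptor that limits the release of histamine and of other transmitters. It was far above the other histamine receptors. It was measured at 127, 133, 101 and 116 CPM in control and at 109, 107, 113 and 92.3 CPM in morphine libraries, on 3470 to 5920 counts. Each morphine library lay below the control median, while control replicate 5 fell within the morphine range. Its log2 fold change was -0.18 ± 0.11 (SE), an interval of 0.748-fold to 1.04-fold, with an edgeR adjusted P of 0.551 and an exact permutation P of 0.171. Without control replicate 5, the value was -0.27 with an unadjusted edgeR P of 0.0322 and an adjusted P of 0.390. It was -0.12 without control replicate 2 (edgeR adjusted P = 0.607) and also -0.12 without morphine replicate 8 (edgeR adjusted P = 0.804). Hrh2 and Hrh3 share 145 and 349 exon bases with antisense transcripts. Whether counting used the strand is not stated, so reads of these stretches cannot be told apart.

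Adora1 (chr1:134199215-134235457, minus strand) encodes the Gi-coupled adenosine receptor through which adenosine quiets wake-active neurons. Its levels were 190.3, 231, 196 and 223 CPM in control libraries and 227, 262, 231 and 275 CPM in morphine libraries. All 4 morphine libraries lay above the control median, and only control replicate 2 reached into the morphine range, where it stood above morphine replicate 3 and beside morphine replicate 7. The group means were 209.8 ± 19.9 and 249 ± 23.5 CPM (SD, n = 4 each). This was a log2 fold change of 0.25 ± 0.10 (SE), or 1.19-fold with an interval of 1.01 to 1.39. The unadjusted edgeR P was 0.0361, the adjusted P was 0.371 and the exact permutation P was 0.0571. The direction was the same in all 17 alternatives, between 0.19 and 0.30, and the adjusted P stayed between 0.171 and 0.783. Without control replicate 5 it was 0.20 (edgeR adjusted P = 0.574) and no longer passed an unadjusted threshold of 0.05, which was also so without control replicate 1 or 6 or morphine replicate 4 or 8. On all 8 libraries the unadjusted edgeR P was 0.0501 with sex in the model and 0.0512 with upper-quartile factors. Adora1 shares 1162 exon bases with Mybph on the opposite strand. Mybph held 5 to 15 counts per library and Adora1 7115 to 13396. The part of reads from the shared bases was not tested, and the strand setting is not stated.

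Adora1 levels varied along with several marker lists. Over the 8 libraries its log2 CPM had a Pearson r of 0.91 with the summed choroid plexus markers (exact permutation P = 0.00255, 0.112 after Benjamini-Hochberg adjustment over the 88 relations of 8 receptors with 11 marker lists). Spearman's rho was 0.88 (exact permutation P = 0.00724, adjusted 0.128), and r was 0.79 without the 2 libraries farthest from the median of the marker sum. With hippocampal markers, r was 0.86 and rho 0.93 (exact permutation adjusted P = 0.125 and 0.0982), and r was 0.92 without the 2 farthest libraries. With telencephalic pyramidal neuron markers, r was 0.84 and rho 0.88 (exact permutation adjusted P = 0.162 and 0.128), and r was 0.72 without the 2 farthest. For astrocyte markers r was 0.86 and rho 0.74 (exact permutation adjusted P = 0.162 and 0.504), and for ependymal markers r was 0.82 and rho 0.62 (exact permutation adjusted P = 0.225 and 0.779). Without the 2 farthest libraries these fell to an r of 0.52 and 0.28. For microglia markers r was 0.66 and rho 0.74 (exact permutation adjusted P = 0.447 and 0.504), and r was 0.83 without the 2 farthest. For endothelial markers r was 0.44 and rho 0.45 (exact permutation adjusted P = 0.941 and 0.942), and r was 0.97 without the 2 farthest. With the markers of PVT neurons themselves the relation ran the other way, with r -0.67 and rho -0.71 (exact permutation adjusted P = 0.447 and 0.507), and r was -0.64 without the 2 farthest libraries. No relation of Adora1 held after adjustment, nor did that of Hrh3 with oligodendrocyte markers (r -0.77, rho -0.90, exact permutation adjusted P = 0.265 and 0.128) or that of Hcrtr2 with striatal markers (r -0.77, rho -0.71, exact permutation adjusted P = 0.310 and 0.507). The choroid plexus markers also separated the groups, so a relation across all libraries holds the group difference in it, and within a group there are only 4 libraries. The lists were also chosen with earlier results of these data known, which the P values do not take into account. The part of these tissues in the Adora1 values was not tested.

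Adora2a (chr10:75316877-75334792, plus strand) encodes the Gs-coupled adenosine receptor that is most abundant in the spiny neurons of the striatal indirect pathway and that caffeine needs to cause wakefulness. No other receptor varied as much. It was measured at 9.43, 28.9, 19.1 and 3.64 CPM in control and at 5.17, 79.4, 66.0 and 0.288 CPM in morphine libraries, or 368, 1283, 799 and 134 counts against 184, 2623, 2034 and 14 counts. The highest pair and the lowest library were all morphine libraries, and 2 of 4 morphine libraries lay above the control median. The log2 fold change of 1.30 ± 1.06 (SE) had an interval from 0.488-fold to 12.4-fold, with an edgeR adjusted P of 0.670 and an exact permutation P of 1.0. Its sign was not stable, since limma-voom gave -0.64. Without morphine replicate 8 the value was 1.71 with an unadjusted edgeR P of 0.0436 and an adjusted P of 0.553. The ratio of the highest to the lowest library was 276, and among those 13703 genes the choroid plexus gene Ttr alone was wider, at 318. With 1 library left out at a time, the edgeR value ranged from 0.63 to 1.81.

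The Adora2a level followed the striatal markers from library to library. In morphine replicate 4, 8 of the 8 striatal markers had their highest value of all libraries, in morphine replicate 7 the value was second highest for 7 of 8, and in morphine replicate 8 it was lowest for 6 of 8. These were the libraries with the highest, second highest and lowest Adora2a. With the summed striatal markers, the log2 CPM of Adora2a had a Pearson r of 0.92 (exact permutation P = 0.000496, adjusted 0.0437 over the 88 relations) and a Spearman rho of 0.98 (exact permutation P = 0.000397, adjusted 0.0349). The marker lists were chosen with earlier results of these data known, which these P values and their adjustment do not take into account. Without morphine replicates 4 and 7, the libraries farthest from the median, r was 0.93. Among the markers, Gpr6, another receptor of indirect pathway neurons, held 42, 108, 68 and 29 counts in control and 15, 217, 151 and 24 counts in morphine libraries. The ratio of Adora2a to Gpr6 counts, looked at after the values were seen, was 4.62 to 13.5 in 7 libraries and 0.583 in morphine replicate 8. Several listed genes are also expressed outside the striatum, and none was at 0 in any library. The part of striatal cells in the Adora2a values was not tested.

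**Figure D2:**
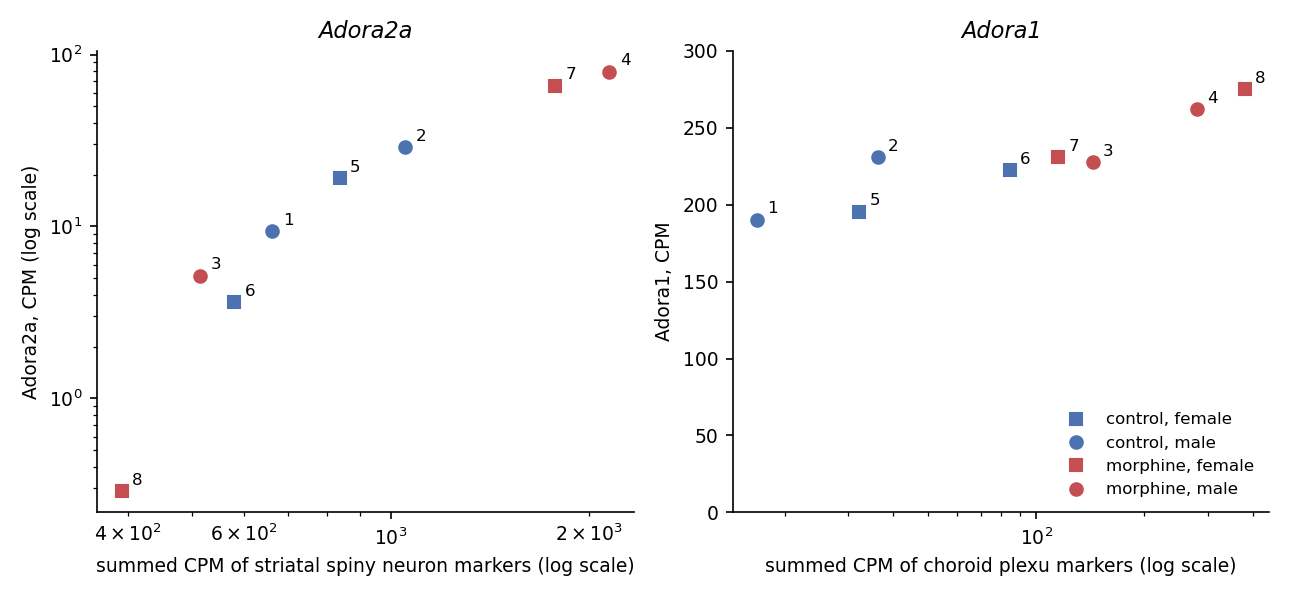
Left, Adora2a CPM against the summed CPM of 8 striatal spiny neuron markers, both axes logarithmic; right, Adora1 CPM against the summed CPM of 10 choroid plexus markers on a logarithmic horizontal axis. Each point is 1 library, labelled with its replicate number; Adora2a rises with the striatal sum from 0.288 CPM in morphine replicate 8 to 79.4 CPM in morphine replicate 4, and all morphine libraries lie to the right of all control libraries in the choroid plexus panel.

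Adora2b (chr11:62248984-62266452, plus strand) encodes the adenosine receptor of lowest affinity. It held only 5 to 19 counts per library, or 0.162 to 0.391 CPM. The log2 fold change was -0.02 ± 0.40 (SE; edgeR adjusted P = 0.987), with an interval of 0.539-fold to 1.79-fold. A fall or a rise within it is compatible with these few counts.

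Adora1 and Hrh3 were the most abundant receptors and Adora2b the scarcest. Divided by transcript length, the mean over the 8 libraries was 46.2 CPM per kb for Adora1, 41.5 for Hrh3, 10.2 for Adora2a, 2.09 for Hrh2, 1.34 for Hrh1, 1.13 for Hcrtr1, 1.00 for Hcrtr2 and 0.137 for Adora2b. Adora1 stood above 91.1% and Hrh3 above 89.9% of the 18497 genes with a known length, whereas both orexin receptors stood above only 37.8% and 37.0%. The order comes from these same 8 libraries, so the spread around it is given as a description, with no test. Hrh3 was above Adora2a and Hcrtr2 above Adora2b in 8 of 8 libraries with no overlap of the ranges. The other 5 pairs of neighbours overlapped. Adora1 was above Hrh3 in 6 of 8 libraries and Hrh2 above Hrh1 in 7 of 8. In 4 of 8, Hrh1 was above Hcrtr1, and likewise Hcrtr1 above Hcrtr2. Adora2a was above Hrh2 in 6 of 8, but below it in control replicate 6 and morphine replicate 8. Its mean was raised by morphine replicates 4 and 7, at 30.6 and 25.4 CPM per kb. The lower part of this order changed when transcript rows were summed. Reads shared by rows of a gene are counted on each, so this sum counts them again for Hcrtr1, Hrh2 and Adora1. The summed values are therefore no second measure of their levels. With the sum over the transcript rows of a gene, Hcrtr1 was at 1.53 CPM per kb, above Hrh1 at 0.918 and Hcrtr2 at 0.688, and Adora1 was at 61.8 against 28.4 for Hrh3. The even split of the orexin receptors described next holds for the single row per gene.

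**Figure D3:**
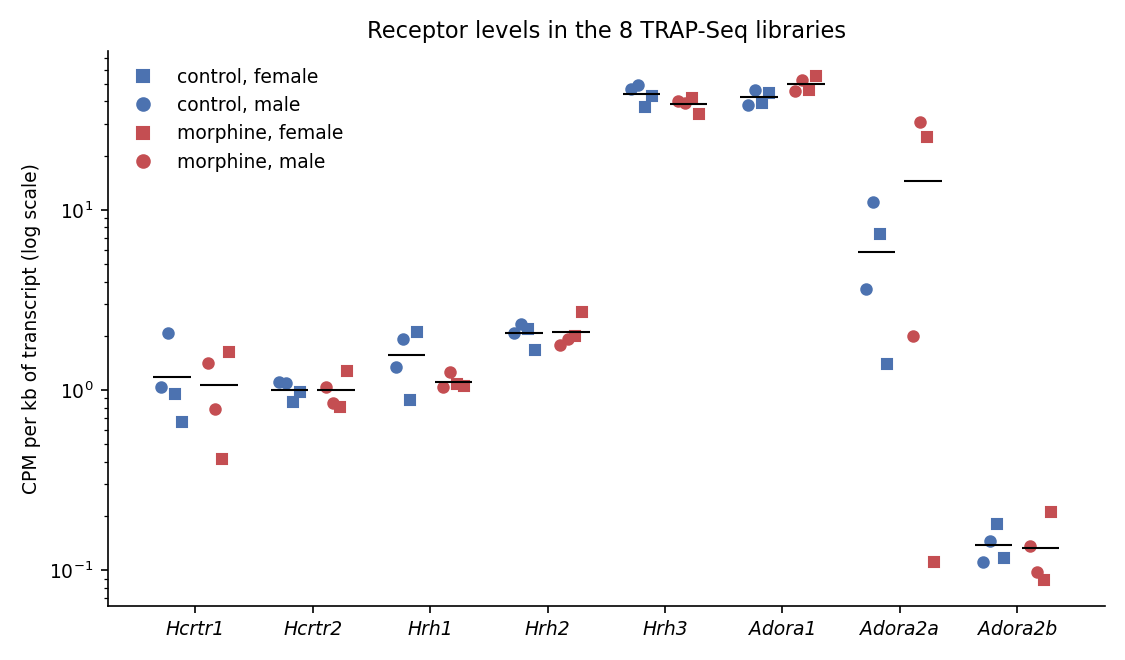
Level of the 8 receptors in CPM per kb of transcript on a logarithmic axis, with 1 point per library (blue, control; red, morphine; circles, male; squares, female) and a line at each group's mean. Adora1 and Hrh3 sit near 46.2 and 41.5, the orexin receptors near 1, and only Adora2a spreads over more than a factor of 10 within a group.

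Within each family the mix of receptors differed in how steady it was. Hrh3 made up 90.0% to 93.5% of the histamine receptor CPM per kb in every library. Adora1 made up 63.2% to 99.4% of the adenosine receptor level, with Adora2a at 0.199% in morphine replicate 8 and at 36.7% in morphine replicate 4. The orexin receptors divided their sum about evenly, with Hcrtr1 at 33.9% to 65.5%. In terms of coupling, the Gi-coupled receptors Hrh3 and Adora1 were the most abundant of their families in 8 of 8 libraries.

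**Figure D4:**
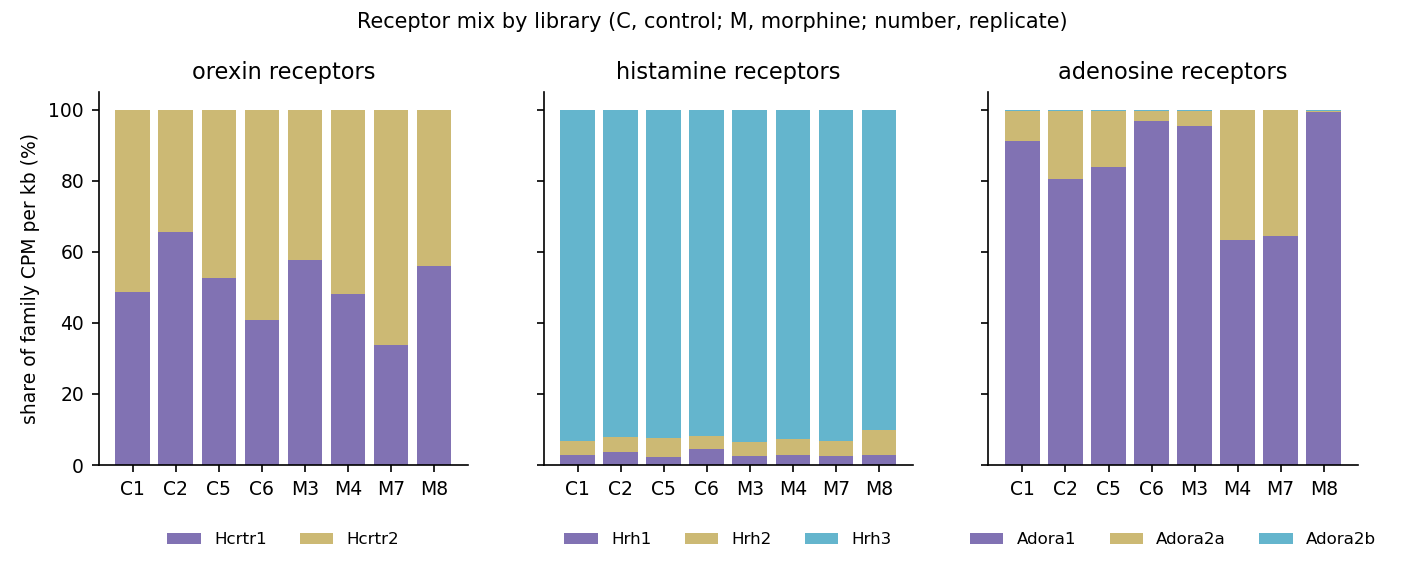
Share of each receptor in the summed CPM per kb of its family, in percent, for each library (C, control; M, morphine; the number is the replicate). Hrh3 takes 90.0% or more of the histamine receptors everywhere, and the Adora2a share ranges from 0.199% to 36.7%.

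The sexes were set against each other in a fit that also held condition. None of the 8 receptors was called (edgeR adjusted P = 1.00 for each after rounding), and 1 gene of the whole table was, or 0.00528%. None of the receptors had an unadjusted P under 0.05, which 3.1% of all genes had. Hcrtr1 had a log2 fold change of -0.51 ± 0.40 (SE; female against male, edgeR unadjusted P = 0.220), with means of 2.01 ± 1.15 CPM in female and 2.91 ± 1.23 CPM in male libraries (SD, n = 4). Without morphine replicate 8 this value was -1.11 with an unadjusted edgeR P of 0.00452 and an adjusted P of 0.886, and without control replicate 2 it was -0.19 with an unadjusted edgeR P of 0.627. Adora1 differed by 0.02 ± 0.11 and Hcrtr2 by -0.06 ± 0.20 on the log2 scale (SE). The morphine effect did not differ detectably between the sexes for any receptor (edgeR interaction adjusted P = 1.0 for each). Of the whole table, 0 genes were called in the interaction and 1.72% had an unadjusted P under 0.05, with 0 receptors among them. With 2 libraries per sex and group, and control replicate 5 of uncertain pooling, only large differences could be seen.

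The ligand and enzyme genes of these systems were read from the same fit, in lists of 46 genes that include coupling proteins. None of the 46 was called, where 0.195% of all genes were, and 3 had an unadjusted P under 0.05, Maob, Trpc4 and Gnai2. These 3 are 6.52% of the 46, below the 12.1% of all genes. The median log2 fold change was 0.05 over the 46 genes against 0.01 over all genes, with 26 higher and 20 lower. DESeq2, which called 3.29% of the genes it tested, called 1 of the 46, Trpc4.

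The orexin precursor gene Hcrt, a gene of lateral hypothalamic neurons, held 0, 105, 20 and 28 counts in control and 3, 117, 54 and 3 counts in morphine libraries. These are levels of 0 to 3.54 CPM, and their log2 fold change was 0.55 ± 1.12 (SE; edgeR adjusted P = 0.873). Pmch, which marks the melanin-concentrating hormone neurons of the same hypothalamic region and was looked at after its values were seen, held 4, 937, 197 and 22 counts in control and 9, 599, 171 and 16 counts in morphine libraries. Both genes were highest in control replicate 2 and morphine replicate 4 and lowest in control replicate 1, morphine replicate 3 and morphine replicate 8. Where these reads came from was not tested.

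Hdc makes histamine from histidine and marks tuberomammillary neurons. It held 8, 54, 17 and 12 counts in control and 19, 57, 17 and 47 counts in morphine libraries, with a log2 fold change of 0.79 ± 0.55 (SE; edgeR adjusted P = 0.604). Of the 6 genes for histamine synthesis, storage, transport and breakdown, 4 were higher and 2 lower in morphine libraries, and 0 were called. Maob, which encodes the oxidase that clears the methylated histamine left by Hnmt as well as other amines, was at 102, 44.6, 49.4 and 69.6 CPM in control and at 51.3, 22.7, 41.8 and 28.5 CPM in morphine libraries. Morphine replicate 3 reached into the control range. Its log2 fold change was -0.88 ± 0.29 (SE; edgeR unadjusted P = 0.0108, adjusted 0.250), and DESeq2 gave an adjusted P of 0.0643. Hnmt, the histamine methyltransferase, was at a mean of 15.4 CPM in control and 17.3 CPM in morphine libraries, a log2 fold change of 0.17 ± 0.11 (SE).

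For adenosine, the 7 genes that produce it outside cells, the 5 transporter genes and the 8 genes of its clearance and turnover gave 0 calls and 0 genes with an unadjusted edgeR P under 0.05. The list medians of the log2 fold change were 0.12, 0.13 and -0.09. Entpd3, an ectonucleotidase, was the highest of its list at 7.17 ± 3.86 CPM in control and 9.06 ± 2.97 CPM in morphine libraries (SD, n = 4). Slc29a1, an equilibrative nucleoside transporter, was at 18.6 ± 3.72 and 20.5 ± 2.33 CPM. Nt5c2, a cytosolic nucleotidase, was at 85.0 ± 7.98 and 75.5 ± 2.91 CPM, a log2 fold change of -0.17 ± 0.09 (SE; edgeR adjusted P = 0.502). Adora3, the remaining adenosine receptor, had 0 to 2 counts per library, which allows no comparison.

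**Figure D5:**
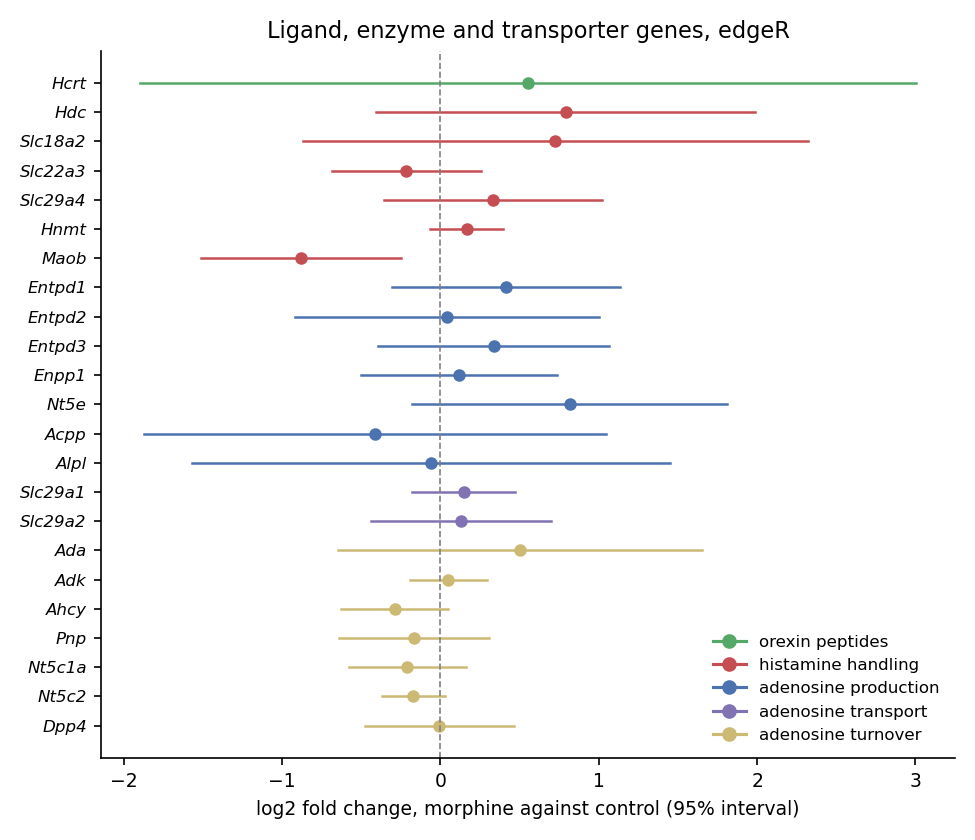
Log2 fold change between morphine and control libraries (points) with its 95% interval (lines) for 23 of the 28 ligand, enzyme, transporter and Adora3 genes, those with a control mean over 0.1 CPM, coloured by list. The interval of Maob alone excludes 0 before adjustment, and the interval of Hcrt is the widest of those drawn.

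Of the 18 coupling genes, 10 were higher and 8 lower in morphine libraries, with a median log2 fold change of 0.01. Trpc4, a cation channel opened downstream of Gq, was at 12.1, 11.2, 6.43 and 12.05 CPM in control and at 12.4, 20.01, 20.7 and 20.6 CPM in morphine libraries. The groups did not overlap, though morphine replicate 3 lay just above the highest control library. Such separation was seen in 1 of the 46 genes and in 6.54% of all genes. The log2 fold change was 0.82 ± 0.22 (SE) with an edgeR adjusted P of 0.161, and DESeq2 gave 0.82 ± 0.23 (SE) with an adjusted P of 0.0200. Gnai2, a Gi subunit, was at 149, 134, 115 and 148 CPM in control and at 105, 112, 123 and 123 CPM in morphine libraries (log2 fold change -0.24 ± 0.11, SE; edgeR unadjusted P = 0.0475, adjusted 0.407). Gnas, the most abundant gene of the Gs list, was at 2410 ± 99.0 and 2337 ± 329 CPM (SD, n = 4).

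For each receptor but Adora2b, which had too few counts, the gene with the most similar log2 CPM over the 8 libraries was sought among 13702 others. It was Fignl2 for Hcrtr1 (Pearson r 0.98), Gpr64 (now Adgrg2) for Hcrtr2 (0.97), Gm88 (now Lrrc73) for Hrh1 (0.98), Chmp2a for Hrh2 (0.95), Dok4 for Hrh3 (0.97), Pigg for Adora1 (0.995) and Sh3rf2 for Adora2a (0.98). A best match among so many genes over 8 libraries is high by selection, and no shared function is read from it. The number of genes with r above 0.9 was 332 for Adora1 and between 7 and 53 for the other 6 receptors. Sh3rf2 was, after Ttr and Adora2a, the third widest of the 13703 genes with 10 or more counts everywhere, with an 87.6-fold range between morphine replicates 4 and 8.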

How the data were processed

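TRAP-Seq libraries were made from MOR-Cre PVT dissections. The authors deposited 1 table of raw, whole counts, with a row per RefSeq transcript and a column per library, and DESeq2 and mm10 are named in the submitters' processing notes. The methods describe Salmon and tximport, but in the deposited table reads shared by transcripts of a gene are counted on each, so it is not that gene matrix. Its counter and strand setting are not given in the sources used here, and the design had assumed 1 row per gene.

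Groups came from the labels. CPM was computed with TMM factors. Tests used edgeR 4.0.16 (R 4.3.3; glmQLFit, glmQLFTest, condition in the model) on every gene not at 0 throughout, adjusted by Benjamini-Hochberg over all genes. Exact permutation tests used log2(CPM + 0.5), two-sided. Correlations and likeness used log2 CPM with a prior count of 2. Lengths and exon overlaps came from GENCODE transcripts, and coordinates from RefSeq on GRCm38. Alternatives were DESeq2 1.42.0, limma-voom (limma 3.58.1), RLE and upper-quartile factors, stricter filters, sex in the model, robust empirical Bayes, the sum over transcripts and each library left out. The scripts were tested on simulated data. The receptors, pathway lists and marker lists (Drd1 and Nwd2 matched by older symbols) were chosen with earlier results of these data known. Named genes are the receptors, Oprm1, Hcrt, Hdc, Adora3, pathway genes with an unadjusted P under 0.05 or else the highest of their list, and the nearest gene to each receptor, and others are given as examples or were looked at later. That separate mice stand behind each library is taken from the methods. The labels name no sequencing batch. Counting error and PCR copies limit genes with few counts.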

Additional observations from a re-analysis of the deposited data

How the results depend on the processing

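0 receptors were called in any of the 17 alternatives, of which filterByExpr and the minimum of 10 counts in every library left Adora2b out and tested 7, and pathway genes gave 1 call with DESeq2 and 0 in the other 16. The number of genes called between morphine and control, 37 with edgeR, was 502 with DESeq2, 14 with filterByExpr, 15 with at least 10 counts in every library, 22 with the sum over transcripts, 110 with sex in the model and 23 with limma-voom, and 0 to 77 with 1 library left out (0 without morphine replicate 4 or 8, where 1696 and 1664 genes had an unadjusted edgeR P under 0.05). Between female and male libraries it was 1, and 21 with DESeq2, 0 with filterByExpr and 0 to 5 with 1 library left out. For the interaction it was 0, and 4 with DESeq2 and 0 to 5 with 1 library left out. No paired analysis was possible because the groups share no replicate number.

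The morphine log2 fold change changed sign for Adora2a with limma-voom (-0.64). With 1 library left out it ranged from -0.44 to 0.27 for Hcrtr1, from -0.16 to 0.056 for Hcrtr2, from -0.13 to 0.10 for Hrh2 and from -0.36 to 0.11 for Adora2b. The female against male value ranged from -0.25 to 0.018 for Hcrtr2, from -0.42 to 0.078 for Hrh1, from -0.067 to 0.21 for Hrh2, from -0.039 to 0.083 for Adora1 and from -2.16 to 0.35 for Adora2a. Hrh1, Hrh3 and Adora1 kept the direction of their morphine difference in all 17. Summing transcripts moved 5 of 8 levels per kb by more than 1 SD. Adora1 and Hrh2 rose, with 2 transcript rows each, on both of which shared reads are counted. Hcrtr2, Hrh3 and Adora2b, with 1 row each, fell, because the library totals they are scaled to then hold more rows. The cause of the sign changes was not tested. Counts were low for Adora2b (5 to 19 per library) and Hdc (8 to 57), and Hcrt (0 to 117) also spread widely among libraries.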
